A study of Homo sapiens with 12 samples.

Results

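Of the 55765 gene symbols in the count files, 10 are described here, chosen by name as ligands, secreted antagonists, a co-receptor and an inhibitor of activin, BMP (bone morphogenetic protein) and TGF-beta signalling. They were chosen with earlier results of these data known. They are the ligand genes INHBA, INHBB, INHBE, BMP2, BMP4 and TGFB2, the antagonist genes FST and GREM1, the co-receptor gene TGFBR3 and the intracellular inhibitor gene SMAD7. All 10 were found in every file. RNA had been sequenced from Hs 578T cells, a triple-negative breast cancer (TNBC) line, that carried a lentiviral GFP vector or a lentiviral vector for exogenous NRF2, the transcription factor that drives many antioxidant genes. Each population was kept for 8 h in medium with 0.8 mM cystine (Cyss), the oxidized form of cysteine, or in medium without Cyss (0 mM). There were 3 libraries in each of 4 groups, named GFP with Cyss, GFP without Cyss, NRF2 with Cyss and NRF2 without Cyss. All 4 groups carried a transduced vector, so that no group of untransduced cells is compared here, and the promoter driving each vector was not stated for these samples in the sources used here. No label says that the 3 libraries of a group came from separate cultures, so p-values measure only the spread between these libraries, which may be technical.

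Ligands of the TGF-beta superfamily are secreted dimers that bring type I and type II receptor kinases together, and the activated receptors phosphorylate SMAD proteins, which enter the nucleus and regulate genes. Activins and TGF-betas act mainly through SMAD2 and SMAD3, and BMPs through SMAD1, SMAD5 and SMAD9. INHBA, INHBB and INHBE encode the beta A, beta B and beta E subunits, whose homodimers are activin A, activin B and activin E. Follistatin (FST) binds activins and gremlin 1 (GREM1) binds BMPs, so that both keep ligand from its receptors. Betaglycan (TGFBR3) presents TGF-beta 2 to its receptor and binds inhibins, and SMAD7 is induced by the pathway and blocks its type I receptors.

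The 250 bases before the RefSeq start site are printed for INHBB, which fell without Cyss, and for INHBA and FST, which rose in NRF2 cells. These genes were picked with their responses known. RefSeq windows were found for 8 of the 10 genes, and each matched GRCh37 at 1 place. Capitals mark matches to motifs searched on both strands, and all sequences run 5′ to 3′ on the gene's strand.
INHBA, chr7:41742689-41742938, minus strand: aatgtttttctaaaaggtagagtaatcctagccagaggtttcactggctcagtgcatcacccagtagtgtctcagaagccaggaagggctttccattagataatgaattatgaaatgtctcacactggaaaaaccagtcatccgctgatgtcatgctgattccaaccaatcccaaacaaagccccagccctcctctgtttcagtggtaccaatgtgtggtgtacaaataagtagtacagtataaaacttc
INHBB, chr2:121103462-121103711, plus strand: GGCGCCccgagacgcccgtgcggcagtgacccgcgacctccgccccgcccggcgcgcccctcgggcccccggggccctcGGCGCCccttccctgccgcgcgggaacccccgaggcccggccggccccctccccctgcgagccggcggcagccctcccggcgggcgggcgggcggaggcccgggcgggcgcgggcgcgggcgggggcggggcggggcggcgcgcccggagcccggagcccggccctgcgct
FST, chr5:52776209-52776458, plus strand: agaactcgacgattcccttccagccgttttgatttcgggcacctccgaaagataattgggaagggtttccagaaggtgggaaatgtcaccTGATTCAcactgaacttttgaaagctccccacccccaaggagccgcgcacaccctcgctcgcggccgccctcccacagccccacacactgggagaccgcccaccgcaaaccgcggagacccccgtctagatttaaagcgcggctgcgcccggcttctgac
The windows held 42.8% G and C for INHBA, 89.6% for INHBB and 60% for FST. Those not printed held 70.4% for BMP4, 73.6% for TGFBR3, 66% for GREM1, 50.4% for TGFB2 and 48.4% for SMAD7. Base composition was not taken over all promoters, and a link between it and the responses was not tested. Searched were TGATGNAA (the composite element of ATF4 and C/EBP), TGACNNNGC (the core of the antioxidant response element that NRF2 binds), TGANTCA (a loose form of the AP-1 site), GTCTAGAC (the palindromic SMAD element) and GGCGCC (a GC-rich SMAD element). The INHBB window held GGCGCC at positions -250 and -171 from the start site, a motif found in 16.4% of the same-length windows of 35116 RefSeq promoters. That share is over windows of any base composition. It was not taken for windows as rich in G and C as that of INHBB, where such a motif is more likely by composition alone. In the FST window, TGATTCA matched TGANTCA at position -160, a pattern found in 6.57% of the windows. This pattern lets any base stand at the centre, and the FST match has T there, so it is not the AP-1 consensus. The INHBA window held none of the 5 motifs. TGACNNNGC, present in 10.9% of windows, was found in those of GREM1 and SMAD7 only among the 8 genes, and TGATGNAA (3.14% of windows) and GTCTAGAC (0.182%) in none of the 8. The windows of INHBA, BMP4, GREM1, TGFBR3 and SMAD7 lie inside the gene bounds given below, before a start site within the gene. Regions before other start sites of these genes were not searched, so a motif absent here may stand there. A match of these letters is a description and shows no binding.

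The libraries held between 27334061 and 44734611 reads assigned to genes (median 32974256), and levels are given as CPM, read counts scaled to each library's depth, here with TMM factors over the 12 libraries. NFE2L2, which encodes NRF2, was counted at 109 to 114 CPM with Cyss and 134 to 139 CPM without in the GFP population, and at 196 to 207 CPM and 220.3 to 249.9 CPM in the NRF2 population. The labels call the line epithelial: 8 of 10 epithelial markers, EPCAM and CDH1 among them, had a mean under 1 CPM in every group, KRT8 and KRT18 lay above it, and all 8 mesenchymal markers had means of 26.3 to 25800 CPM. Of 5 blood and endothelial markers found, 4 were under 1 CPM in every group and PTPRC reached a mean of 1.09 CPM. In a principal component analysis, GFP without Cyss replicate 3 stood apart from the other libraries of its group, at 2.71 on the first component (28% of the variance) against -11.2 and -8.04, while the NRF2 libraries without Cyss were at 25.6 to 27.7. Fitted differences that rest on this library are therefore followed, for the 9 genes tested and for most named pathway genes, by the value without it.

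Compared per length, INHBA mRNA was the most abundant of the 10 and GREM1 the least. In GFP cells with Cyss, INHBA stood at 52.2 ± 2.90 CPM per kb of exon (mean ± SD, n = 3), followed by TGFB2 at 16.1 ± 1.34, SMAD7 at 14.9 ± 0.211 and INHBB at 11.1 ± 0.319 CPM per kb. INHBE at 4.41 ± 0.197, FST at 4.38 ± 0.318 and BMP2 at 4.38 ± 0.0139 CPM per kb lay within 1 SD of INHBE. TGFBR3 was at 2.17 ± 0.167 and BMP4 at 1.97 ± 0.119 CPM per kb, less than the sum of their SDs apart, as were TGFB2 and SMAD7. GREM1, at 0.0179 ± 0.00812 CPM per kb, was hardly counted. The order changed without Cyss in NRF2 cells, where INHBA stood at 96.0 ± 1.62, SMAD7 at 18.6 ± 0.593, TGFB2 at 18 ± 1.77, BMP2 at 16.0 ± 2.46, FST at 7.29 ± 0.793, INHBB at 7.12 ± 1.09 and INHBE at 6.62 ± 0.243 CPM per kb. Of these, SMAD7, TGFB2 and BMP2 were neighbours less than the sum of their SDs apart, and so were FST, INHBB and INHBE. Exon lengths are those of GENCODE 44 on GRCh37, and the authors' annotation was not given in the sources used here.

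**Figure D1:**
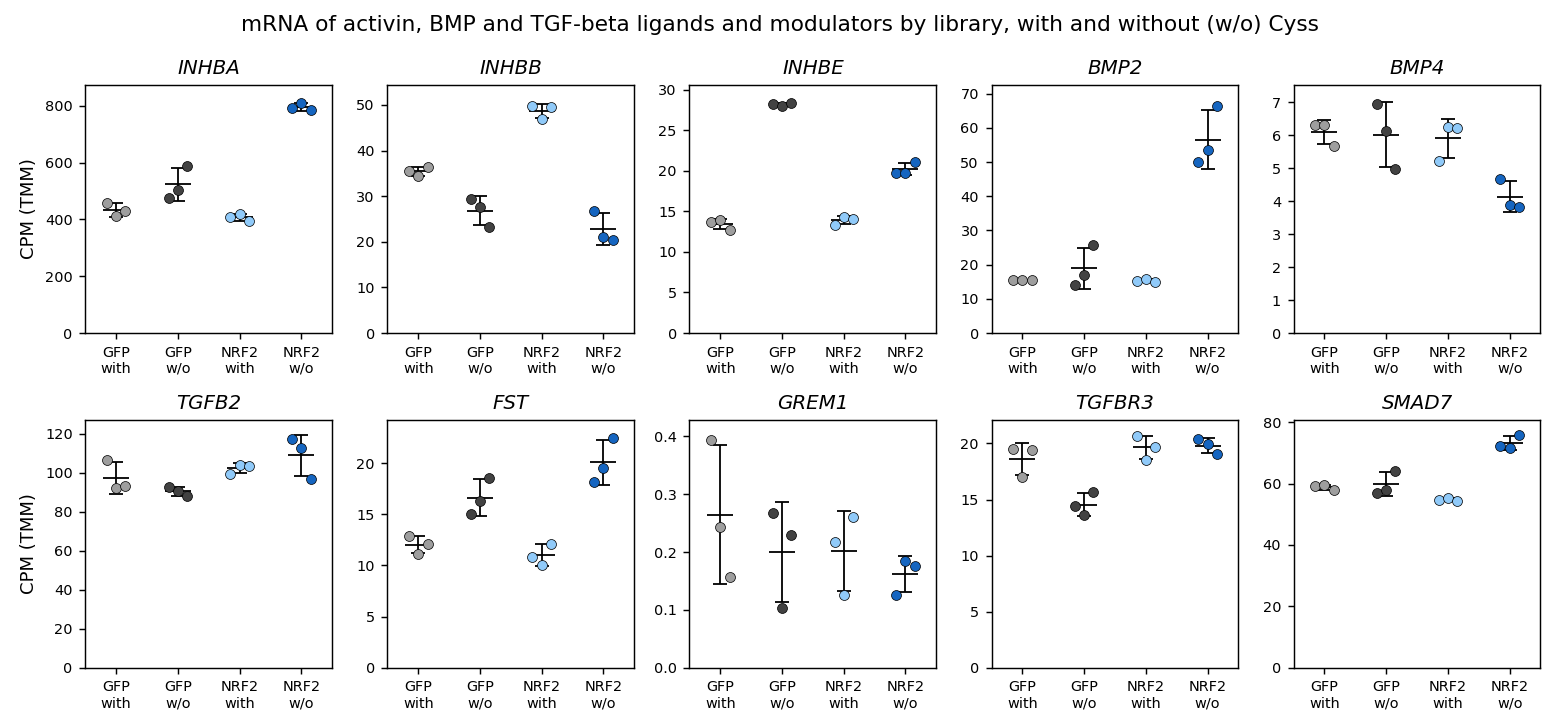
CPM (TMM over 12 libraries, linear axis from 0) of each gene in the 4 groups, with and without (w/o) Cyss. Points are libraries, long bars the group mean and whiskers the SD (n = 3). INHBA and BMP2 stand highest in NRF2 cells without Cyss, INHBE in GFP cells without Cyss, and INHBB in NRF2 cells with Cyss.

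The first comparison asks what 8 h without Cyss did in GFP cells. INHBE and FST mRNA rose and INHBB and TGFBR3 mRNA fell, while BMP2, BMP4, TGFB2 and SMAD7 did not pass the test and INHBA passed it below the fold threshold. In RNA from whole cultures, a change in every cell and a change in some of the cells cannot be told apart. A gene was called changed with an adjusted p under 0.1 in edgeR's quasi-likelihood test and a log2 fold change (log2FC) over 0.32 in size. In this comparison 2.10% of the 17452 genes tested were called (1.57% higher and 0.533% lower), against 4 of the 9 genes tested here. Because the 9 were chosen with earlier results known, such shares here and below are set side by side and were not tested. The median log2FC of the 9 was 0.02, and that of all genes tested 0.00. GREM1 had too few reads for the test in every comparison, with 3 to 15 reads per library, so that no change of it was tested. Without GFP without Cyss replicate 3, 3 of the 9 were called, since the log2FC of INHBB came to -0.31.

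In NRF2 cells, the same deprivation was accompanied by changes in 7 of the 9 genes. BMP2, INHBA, FST, INHBE and SMAD7 rose and INHBB and BMP4 fell, while TGFB2 and TGFBR3 did not pass the test. Of 17266 genes tested, 11.9% were called (6.81% higher and 5.14% lower). The median log2FC of the 9 genes was 0.42, against -0.01 for all genes. Leaving out any 1 of the 6 libraries kept the count at 7. With scaling by library size only, the share of calls that were higher among all genes fell from 57% to 40.1%, and the count among the 9 genes stayed at 7.

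NRF2 cells were next set against GFP cells in each medium. With Cyss, INHBB was the only 1 of the 9 genes called, and it was higher in NRF2 cells. Of 17449 genes tested, 1.56% were called (1.36% higher and 0.201% lower). None of the 9 was called lower by edgeR or by DESeq2, and 2 (INHBA and SMAD7, with log2FC of -0.09 and -0.10) were lower at an unadjusted p under 0.05. Without Cyss, BMP2, INHBA and TGFBR3 were higher and INHBE and BMP4 lower in NRF2 cells, which made 5 of 9, where 10.1% of 17297 genes were called (5.98% higher and 4.09% lower). Without GFP without Cyss replicate 3, 8 of the 9 were called, with FST at a log2FC of 0.35, SMAD7 at 0.34 and INHBB at -0.34 added. Scaling by library size only lowered the share of higher calls among all genes from 59.4% to 46.7% in this comparison and left the count at 5. The comparisons share libraries: each group enters 2 of the 4, and values are therefore set side by side.

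Whether the 2 populations responded differently to deprivation was asked with an interaction term fitted to the 12 libraries, and a gene was called with an adjusted p under 0.1 alone. Of the 9 genes, 8 had different responses in the 2 populations, 5 with a higher and 3 with a lower log2FC in NRF2 cells, where 15.1% of 17674 genes were called (8.97% higher and 6.13% lower). TGFB2 was the exception. With library size scaling, the higher share of calls among all genes went from 59.4% to 36.2% and 8 genes were still called. The count was also 8 without GFP without Cyss replicate 3. Over all left-out libraries it ran from 6 to 9, and over the other settings also from 6 to 9. BMP4 (edgeR adjusted p = 0.068) and FST (edgeR adjusted p = 0.0652) were above the stricter cutoff of 0.05. Each lost its call in 6 of the 12 fits with a library left out.

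**Figure D2:**
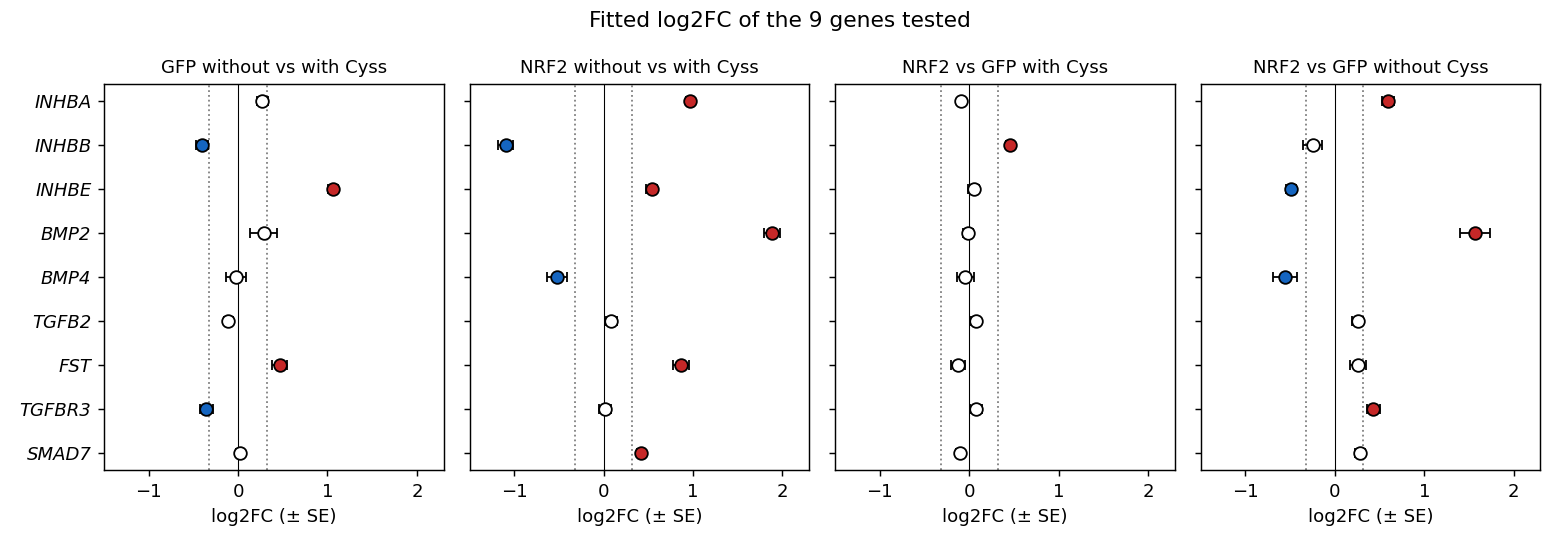
Log2FC (± SE) of the 9 genes tested in 4 comparisons. Red points were called higher, blue points lower, white points were not called, and dotted lines mark a log2FC of 0.32 in size. Most filled points lie in the panel of NRF2 cells without against with Cyss (7 of 9), and 1 in the panel of NRF2 against GFP cells with Cyss.

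INHBA, the beta A subunit gene (chromosome 7, 41706766 to 41745432, minus strand), was high in all libraries and highest in NRF2 cells without Cyss. With Cyss it stood at 458, 410.3 and 429.5 CPM in GFP cells and at 406.9, 419.3 and 394.7 CPM in NRF2 cells. Without Cyss it stood at 476.8, 503.1 and 589.4 CPM in GFP cells and at 790.5, 810.8 and 785.5 CPM in NRF2 cells. The NRF2 libraries without Cyss lay above all others, the GFP libraries without Cyss lay next, and the 2 groups with Cyss overlapped. In NRF2 cells INHBA rose by a log2FC of 0.97 (SE 0.0432, edgeR adjusted p = 1.86e-09). In GFP cells its log2FC was 0.27 (SE 0.0660, edgeR adjusted p = 0.0426), under the fold threshold, and the value was 0.34 and called without GFP without Cyss replicate 1 and 0.18 without replicate 3. The responses differed by 0.69 (SE 0.0845, edgeR adjusted p = 0.000416), and by 0.79 without replicate 3. Over the 12 fits that left out 1 library this difference was 0.63 to 0.79. Between populations without Cyss, INHBA was higher in NRF2 cells by a log2FC of 0.59 (SE 0.0674, edgeR adjusted p = 0.000315). That value was 0.69 without GFP without Cyss replicate 3 and 0.53 to 0.69 over all left-out libraries. The lncRNA INHBA-AS1 on the other strand overlaps 3.0% of its exon length, and counting took no account of strand.

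INHBB, the beta B subunit gene (chromosome 2, 121103712 to 121109379, plus strand), went the other way in both populations. It stood at 35.4, 34.4 and 36.4 CPM in GFP cells with Cyss and at 29.5, 27.6 and 23.3 CPM without. In NRF2 cells it stood at 49.7, 46.9 and 49.5 CPM with Cyss and at 26.8, 21.1 and 20.5 CPM without. The groups with Cyss were apart from each other and from both groups without Cyss, which overlapped. INHBB fell in NRF2 cells (log2FC -1.10, SE 0.0829, edgeR adjusted p = 2.32e-07) and in GFP cells (log2FC -0.40, SE 0.0721, edgeR adjusted p = 0.007), where the value without replicate 3 of the deprived group was -0.31 and not called. Its fall was larger in NRF2 cells by 0.69 (interaction log2FC -0.69, SE 0.121, edgeR adjusted p = 0.00195), and the interaction was -0.78 without that library. With Cyss, INHBB was higher in NRF2 than in GFP cells by a log2FC of 0.46 (SE 0.0454, edgeR adjusted p = 1.2e-05). Without Cyss the log2FC was -0.25 (95% confidence interval -0.48 to -0.02, edgeR adjusted p = 0.119), and it was called without GFP without Cyss replicate 3 (-0.34) and without NRF2 without Cyss replicate 1 (-0.37).

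INHBE, the beta E subunit gene (chromosome 12, 57846106 to 57853063, plus strand), is best known from liver, and here it rose more in GFP cells than in NRF2 cells. In GFP cells it stood at 13.7, 13.9 and 12.8 CPM with Cyss and at 28.2, 28.0 and 28.3 CPM without. In NRF2 cells it stood at 13.4, 14.3 and 14.1 CPM with Cyss and at 19.7, 19.8 and 21.0 CPM without. The 2 groups with Cyss overlapped, and both groups without Cyss lay above them and apart from each other, with GFP cells on top. INHBE rose by a log2FC of 1.06 in GFP cells (SE 0.0554, edgeR adjusted p = 6.09e-08), the same to 2 decimals without replicate 3 of the deprived group, and of 0.53 in NRF2 cells (SE 0.0647, edgeR adjusted p = 2.73e-05). The response in NRF2 cells was smaller by 0.53 (interaction log2FC -0.53, SE 0.0799, edgeR adjusted p = 0.000784), and the interaction stayed between -0.56 and -0.50 when any 1 of 12 libraries was left out. Without Cyss, INHBE was lower in NRF2 cells by a log2FC of -0.49 (SE 0.0568, edgeR adjusted p = 0.000328), also -0.49 without GFP without Cyss replicate 3, whereas with Cyss the log2FC was 0.05 (95% confidence interval -0.09 to 0.18, edgeR adjusted p = 0.723). An unnamed lncRNA gene, ENSG00000287200, lies on the opposite strand over 16.4% of the INHBE exon length, and reads from the 2 cannot be told apart.

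To contrast the 3 subunit genes within a library, where scaling plays no part, the log2 ratio of their reads was taken. The ratios were tested by an exact two-sided permutation test of the 12 libraries within strata (400 arrangements, 6 tests, Benjamini-Hochberg adjusted). A ratio difference was called with an adjusted p under 0.05, a stricter cutoff than the 0.1 used for single genes. INHBB fell relative to INHBA without Cyss: the mean log2 ratio went from -3.61 ± 0.0723 to -4.29 ± 0.335 in GFP cells and from -3.06 ± 0.0868 to -5.13 ± 0.220 in NRF2 cells (SD, n = 3). The mean difference was -1.38 (exact permutation p = 0.005, adjusted p = 0.015), and 0.005 is the smallest p this design allows. INHBE rose relative to INHBB by 1.48 in GFP cells and 1.64 in NRF2 cells, with a mean of 1.56 (exact permutation p = 0.005, adjusted p = 0.015). From about 1 INHBE read for each 3 INHBB reads with Cyss (ratios of 0.269 to 0.404 over both populations), the libraries reached 0.735 to 1.22 without Cyss. INHBE relative to INHBA rose by 0.80 in GFP cells and fell by 0.43 in NRF2 cells, so that the mean difference was 0.18 (exact permutation p = 0.4, adjusted p = 0.48). Between populations, the ratio of INHBE to INHBB was lower in NRF2 cells by -0.33 (exact permutation p = 0.015, adjusted p = 0.03), a call that was lost without any of NRF2 without Cyss replicate 1 (-0.26), replicate 2 (-0.35) or GFP without Cyss replicate 3 (-0.28). The ratios to INHBA between populations went opposite ways in the 2 media: NRF2 cells minus GFP cells came to 0.14 with Cyss and -1.09 without for INHBE, and to 0.55 and -0.85 for INHBB. Their means over both media, -0.48 for INHBE (exact permutation p = 0.095, adjusted p = 0.143) and -0.15 for INHBB (exact permutation p = 0.515, adjusted p = 0.515), did not pass the test, and the difference in each medium was not tested. Without GFP without Cyss replicate 3 the differences of the other called ratios were -1.28 and 1.51.

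**Figure D3:**
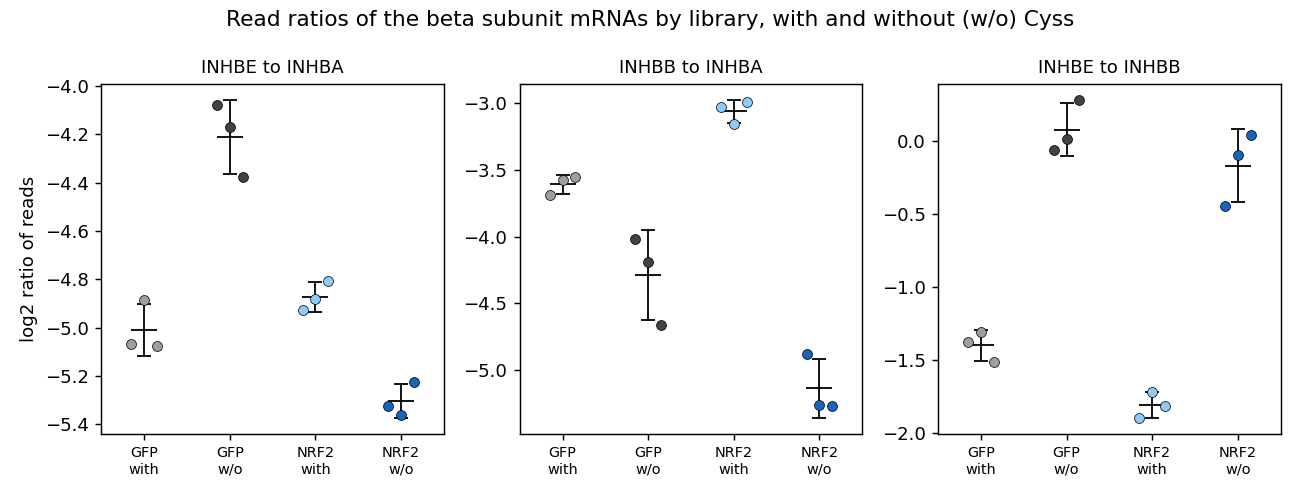
Log2 ratio of reads between subunit genes in each library, for the 4 groups with and without (w/o) Cyss; bars are means and whiskers SDs (n = 3), and the 3 vertical axes differ. INHBE to INHBA moves up without Cyss in GFP cells (-5.01 to -4.21) and down in NRF2 cells (-4.87 to -5.30), while INHBE to INHBB moves up in both.

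BMP2 (chromosome 20, 6748333 to 6760893, plus strand), a BMP ligand that drives bone and cartilage formation, had the largest log2FC of the 9 genes. In GFP cells it stood at 15.6, 15.5 and 15.5 CPM with Cyss and at 14.2, 17.0 and 25.7 CPM without. In NRF2 cells it stood at 15.3, 15.9 and 14.9 CPM with Cyss and at 49.9, 53.5 and 66.5 CPM without. The deprived NRF2 libraries lay above all others, and the deprived GFP libraries spread across and above the values with Cyss. BMP2 rose in NRF2 cells (log2FC 1.88, SE 0.0918, edgeR adjusted p = 3.02e-09). In GFP cells its log2FC was 0.29 (95% confidence interval -0.04 to 0.62, edgeR adjusted p = 0.347). That value hung on single libraries of the deprived group, with 0.01 without replicate 3 and 0.46, which was called, without replicate 1. The responses differed by 1.60 (SE 0.205, edgeR adjusted p = 0.000602), and by 1.88 without replicate 3. Over the 12 fits that left out 1 library this difference was 1.42 to 1.88. Between populations without Cyss, BMP2 was higher in NRF2 cells by a log2FC of 1.57 (SE 0.166, edgeR adjusted p = 0.000284). That value was 1.85 without GFP without Cyss replicate 3 and 1.39 to 1.85 over all left-out libraries. With Cyss the log2FC was -0.02 (95% confidence interval -0.14 to 0.11).

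BMP4 (chromosome 14, 54416454 to 54425479, minus strand), a BMP ligand of early mesoderm and of many epithelia, was low and fell in NRF2 cells. It stood at 6.33, 6.30 and 5.67 CPM in GFP cells with Cyss and at 6.94, 6.12 and 4.97 CPM without. NRF2 cells had 5.22, 6.26 and 6.23 CPM with Cyss and 4.69, 3.90 and 3.83 CPM without, and the deprived NRF2 libraries lay below all others. BMP4 fell by a log2FC of -0.52 in NRF2 cells (SE 0.116, edgeR adjusted p = 0.00478), and in GFP cells the log2FC was -0.02 (95% confidence interval -0.26 to 0.22), 0.10 without replicate 3 of the deprived group. The interaction was -0.50 (SE 0.167, edgeR adjusted p = 0.068), and the call was lost in 6 of the 12 fits that left out 1 library, and held at -0.62 without GFP without Cyss replicate 3. Without Cyss, BMP4 mRNA was less abundant in NRF2 cells (log2FC -0.56, SE 0.135, edgeR adjusted p = 0.0137), and the log2FC was -0.67 without that library. Exons of ENSG00000287156 on the other strand overlap 16.3% of its exon length, so part of these reads may belong to that gene.

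TGFB2 (chromosome 1, 218518678 to 218617961, plus strand) encodes TGF-beta 2 and was not called in any comparison. Its libraries stood at 92.2 to 107 CPM in GFP cells with Cyss, 88.3 to 92.7 in GFP cells without, 99.4 to 104 in NRF2 cells with and 96.8 to 117 CPM in NRF2 cells without Cyss. The log2FC was -0.11 (95% confidence interval -0.23 to 0.01) in GFP cells and 0.09 (-0.05 to 0.22) in NRF2 cells without against with Cyss. In the 2 groups without Cyss the libraries did not overlap, and the log2FC of 0.25 (SE 0.0655, edgeR adjusted p = 0.0181) was under the fold threshold. It was 0.33 and called without NRF2 without Cyss replicate 3, and 0.24 without GFP without Cyss replicate 3. The log2FC in GFP cells was -0.09 without the latter. The interaction was 0.20 (edgeR adjusted p = 0.187), was called at 0.27 without NRF2 without Cyss replicate 3, and was 0.18 without GFP without Cyss replicate 3. TGFB2-OT1 and TGFB2-AS1 share 22.7% and 11.6% of its exon length.

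FST (chromosome 5, 52776456 to 52782964, plus strand), the activin antagonist, rose in both populations. In GFP cells it stood at 12.9, 11.1 and 12.1 CPM with Cyss and at 15.0, 16.3 and 18.6 CPM without. In NRF2 cells it stood at 10.9, 10.0 and 12.1 CPM with Cyss and at 18.2, 19.5 and 22.5 CPM without. All 6 deprived libraries lay above all 6 with Cyss, and the deprived groups overlapped each other. FST rose by a log2FC of 0.46 in GFP cells (SE 0.0833, edgeR adjusted p = 0.00718), 0.38 without replicate 3 of the deprived group, and of 0.87 in NRF2 cells (SE 0.0900, edgeR adjusted p = 6.05e-06). The interaction was 0.40 (SE 0.133, edgeR adjusted p = 0.0652), and its call was lost in 6 of 12 fits that left out 1 library, and held at 0.49 without GFP without Cyss replicate 3. Between populations without Cyss the log2FC was 0.26 (edgeR adjusted p = 0.0643), under the fold threshold, and it was called without GFP without Cyss replicate 3 (0.35) and without NRF2 without Cyss replicate 1 (0.33). GREM1 (chromosome 15, 33010205 to 33037307, plus strand), the BMP antagonist, had 15, 11 and 6 reads with Cyss and 9, 3 and 7 without in the GFP population. NRF2 cells had 6, 4 and 8 GREM1 reads with Cyss and 4, 6 and 6 without, and the 4 groups overlapped.

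TGFBR3 (chromosome 1, 92145900 to 92371892, minus strand), the betaglycan gene, fell in GFP cells and was not called in NRF2 cells, and the responses differed. In GFP cells it stood at 19.5, 17.0 and 19.4 CPM with Cyss and at 14.4, 13.6 and 15.6 CPM without. In NRF2 cells it stood at 20.7, 18.6 and 19.7 CPM with Cyss and at 20.4, 20.0 and 19.1 CPM without. The deprived GFP libraries lay below all others and the other groups overlapped. Its log2FC was -0.36 in GFP cells (SE 0.0733, edgeR adjusted p = 0.0177), which dropped under the fold threshold when replicate 1 with Cyss (-0.32) or replicate 2 without Cyss (-0.31) was left out, and was -0.41 when replicate 3 without Cyss was left out. In NRF2 cells it was 0.01 (95% confidence interval -0.13 to 0.15). The interaction was 0.37 (SE 0.0987, edgeR adjusted p = 0.0269), 0.42 without GFP without Cyss replicate 3, and without Cyss TGFBR3 was higher in NRF2 cells by a log2FC of 0.43 (SE 0.0699, edgeR adjusted p = 0.00171), 0.49 without that library.

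SMAD7 (chromosome 18, 46446223 to 46477335, minus strand), the inhibitor that the pathway itself induces, rose in NRF2 cells. In GFP cells it stood at 59.1, 59.4 and 57.8 CPM with Cyss and at 57.0, 58.0 and 64.2 CPM without. NRF2 cells had 54.8, 55.3 and 54.2 CPM with Cyss and 72.2, 71.5 and 75.9 CPM without. The deprived NRF2 libraries were the highest and the NRF2 libraries with Cyss the lowest, without overlap with the GFP groups. SMAD7 rose by a log2FC of 0.42 in NRF2 cells (SE 0.0471, edgeR adjusted p = 1.39e-05), and in GFP cells the log2FC was 0.02 (95% confidence interval -0.09 to 0.13), -0.03 without replicate 3 of the deprived group. The responses differed by 0.40 (SE 0.0667, edgeR adjusted p = 0.00152), and by 0.45 without GFP without Cyss replicate 3. Without Cyss the log2FC between populations was 0.28 (edgeR adjusted p = 0.00527), under the fold threshold, and 0.34 without GFP without Cyss replicate 3.

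**Figure D4:**
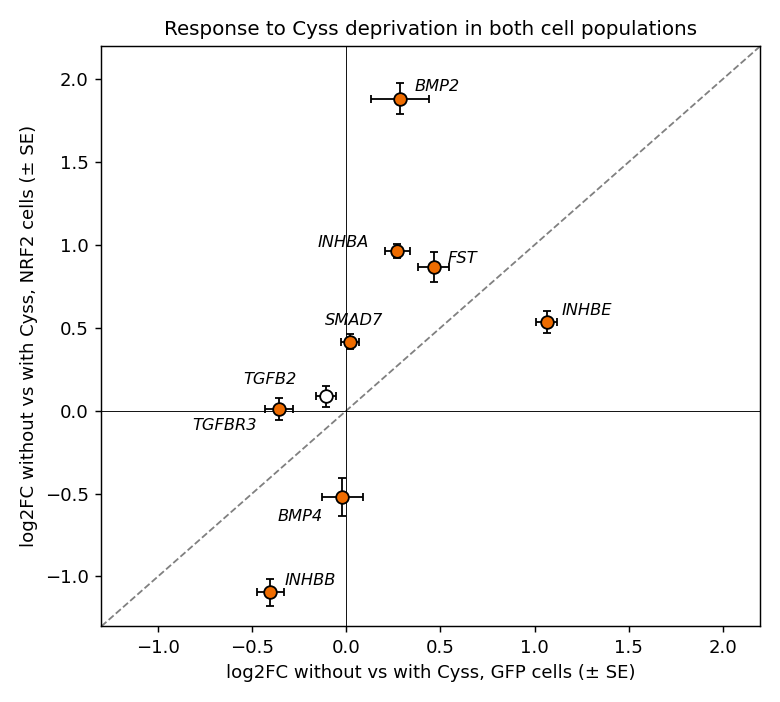
Log2FC without against with Cyss in GFP cells (horizontal) and NRF2 cells (vertical), with SE bars; the dashed line marks equal responses. Filled genes had different responses in the interaction (8 of 9). BMP2, INHBA, FST, SMAD7 and TGFBR3 lie above the line, and INHBE, INHBB and BMP4 below it.

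The surrounding pathway was described by a list of 97 other genes: 27 ligands, 18 receptors and co-receptors, 21 secreted binding proteins, 18 SMADs and their regulators, and 13 response genes. The list was also drawn up with earlier results of these data known. Without Cyss in GFP cells, 0 of the 67 tested rose and 2 fell in edgeR's quasi-likelihood test (8 higher and 13 lower at an unadjusted p under 0.05; DESeq2 called 0 higher and 2 lower). The share called was 2.99%, near the 2.10% of all genes. These were ACVR1C, an activin and nodal type I receptor (log2FC -0.55), and LDLRAD4, which restrains SMAD activation (-0.43). Neither was called without GFP without Cyss replicate 2 (0 list genes called) or replicate 3 (1 other list gene called), ACVR1C was not called without replicate 1 of GFP with Cyss, and 4 list genes were called without GFP without Cyss replicate 1. The median log2FC of the list was -0.04, against 0.00 for all genes.

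In NRF2 cells, 12 of 67 rose and 11 fell, or 34.3% against the 11.9% of all genes given above, with a median of 0.07 against -0.01. Among genes whose mean reached 50 normalized counts, the largest rises included RGMB, a BMP co-receptor (log2FC 0.91, SE 0.0704), SMURF2, a ubiquitin ligase for SMADs and receptors (0.88, SE 0.0541), and NRROS, which tethers latent TGF-beta (0.78, SE 0.197). The largest falls were ACVR1C (-0.84, SE 0.209), ID2, a BMP response gene (-0.71, SE 0.0573), LDLRAD4 (-0.71, SE 0.104) and the ligand gene TGFB3 (-0.68, SE 0.0727). BMP6 and GDF15, named here after their values were seen, had larger rises (1.69 and 2.37) at means of 46 and 15.7 reads without Cyss. By role, 2 of 10 ligands rose and 1 fell, 4 of 13 receptors rose and 2 fell, 2 of 14 secreted binding proteins rose and 2 fell, 2 of 18 SMADs and regulators rose and 3 fell, and 2 of 12 response genes rose and 3 fell. RGMB went from 77.5 ± 3.16 to 145.8 ± 17.5 CPM and ID2 from 54.6 ± 1.60 to 33.3 ± 2.17 CPM (SD, n = 3).

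Between populations with Cyss, 2 of 66 list genes were higher in NRF2 cells, AMH (log2FC 0.33), a ligand of the family, and LRRC32 (0.33), which tethers latent TGF-beta, and 0 were lower (14 higher and 8 lower at an unadjusted p under 0.05; DESeq2 called 2 higher and 0 lower). The share called was 3.03%, against 1.56% of all genes. Left-out libraries gave 0 to 4 calls, 0 without NRF2 with Cyss replicate 1, 1 without its replicate 3 or without replicate 1 or 2 of GFP with Cyss, and 4 without NRF2 with Cyss replicate 2. Without Cyss, 12 of 68 were higher and 6 lower in NRF2 cells (26.5% against 10.1% of all genes). Among them, 2 of 12 response genes were higher and 4 lower. Among genes whose mean reached 50 normalized counts, NRROS (0.88), RGMB (0.85), SMURF2 (0.50) and BMPR1B, a BMP type I receptor (0.48), led the higher genes. GDF15 (1.20) and BMP6 (0.99) were called with larger log2FC at lower counts. The lower genes were led by ID3 (-0.76), ID2 (-0.59) and ID1 (-0.57), all BMP response genes, and by the BMP-restraining SMAD6 (-0.46), whose call was lost without GFP without Cyss replicate 1 or 2 or NRF2 without Cyss replicate 2 or 3. The count was 11 without GFP without Cyss replicate 1 and 22 without replicate 3. Without the latter library the log2FC was 0.98 for NRROS, 1.02 for RGMB, 0.63 for SMURF2, 0.59 for BMPR1B, -0.86 for ID3, -0.69 for ID2, -0.64 for ID1 and -0.65 for SMAD6. Over all left-out libraries it ran from 0.739 to 1.017 for RGMB and from -0.864 to -0.695 for ID3.

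The responses of the 2 populations differed for 27 of 68 list genes, 17 with a higher and 10 with a lower log2FC in NRF2 cells (39.7% against 15.1% of all genes). Among them, 3 of 12 response genes had a higher and 4 a lower log2FC in NRF2 cells. RGMB (0.87), SMURF2 (0.66) and BMPR1B (0.57) were among the largest differences on the higher side, and SMAD6 (-0.68), ID3 (-0.67), ID2 (-0.58) and ID1 (-0.55) led the lower side. In the GFP population ID3 stood at 120.4 ± 6.06 CPM with Cyss and 120.8 ± 15.6 CPM without, and at 114 ± 0.630 and 71.8 ± 5.03 CPM in NRF2 cells (SD, n = 3). SMAD6 was not called without GFP without Cyss replicate 1 or 2. The count was 15 when replicate 3 of NRF2 with Cyss or replicate 2 of GFP without Cyss was left out, 16 without GFP without Cyss replicate 1, 17 without GFP with Cyss replicate 1 and 28 without GFP without Cyss replicate 3. Without the last library the differences were 1.03 for RGMB, 0.79 for SMURF2, 0.68 for BMPR1B, -0.87 for SMAD6, -0.77 for ID3, -0.69 for ID2 and -0.63 for ID1. Over all left-out libraries they ran from 0.758 to 1.033 for RGMB and from -0.774 to -0.611 for ID3.

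Patterns most like those of the 3 subunit genes were found by Pearson correlation of log2 CPM over the 12 libraries among 13528 genes, as a description in which all genes share libraries and depth. INHBA was followed most closely by PHLDA1 (r = 0.993), ZNF697 (0.993), RIN2 (0.992), AFAP1 (0.99) and APBB2 (0.99). INHBB was closest to MICALL2 (r = 0.985), ZSCAN31 (0.982), ALDH3A2 (0.978), LIG1 (0.978) and PELI3 (0.97). For INHBE the closest were DDIT4 (r = 0.99), NUPR1 (0.982), PSAT1P3, a pseudogene whose reads are uncertain (0.976), LINC00900 (0.976) and ZCCHC8 (0.969). The 3 lists of 5 shared no gene, which follows from the low or negative correlations among the 3 subunit genes given next and is no separate result. Among the genes described here, INHBA had r = 0.963 with BMP2, 0.962 with SMAD7, 0.513 with INHBE and -0.861 with INHBB, and INHBE had r = -0.717 with INHBB.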

How the data were processed

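RNA had been prepared with a TruSeq RNA v2 kit and sequenced single end. Per the labels, the submitters' processing notes name FastQC, Bowtie, TopHat2 2.1.0, HTSeq 0.11.2 and hg19. The authors counted reads on exons without regard to strand, and the deposited values are raw counts per gene symbol, not normalized; the gene annotation was not given in the sources used here. Of the reads, 15.9 to 17.1% were not assigned to a gene. From 55765 symbols, 523 rRNA genes were removed.

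For each comparison, genes whose mean reached 10 normalized counts in either group were kept, and after TMM scaling the 6 libraries were compared by edgeR's quasi-likelihood test, adjusted by Benjamini-Hochberg (12 libraries for the interaction), with R 4.3.3 and edgeR 4.0.16. CPM are printed with TMM factors over 12 libraries. Figures were drawn with matplotlib 3.10.9. Replicate pairs differed by a chi-square per degree of freedom of 2.11 to 11.7. The highest values were 11.7 (replicates 1 and 3) and 5.85 (1 and 2) in NRF2 without Cyss, and 6.46 (1 and 2) in GFP with Cyss. The pairs of GFP without Cyss came to 2.73 to 4.96. Intervals are those of the fit (95%). The fits were tested on simulated data.

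The members, lists and tests were chosen with earlier results of these data known. Named were all 10 members and, of the pathway list, all called genes where 8 or fewer, otherwise the 4 with the largest log2FC in each direction whose mean reached 50 normalized counts, and the 5 genes most like each subunit gene at that mean. A gene that this rule names is not reported here. Alternatives were DESeq2 1.42.0 (size factors, Wald test), library size, filters, thresholds, rRNA genes kept, all 12 libraries, a replicate block, a pseudocount of 1 read for ratios, and left-out libraries. For the named pathway genes these were added after seeing the data.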

Additional observations from a re-analysis of the deposited data

Results flagged for a closer look

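These genes are listed because their responses to Cyss deprivation differed between NRF2 and GFP cells in the interaction test (edgeR's quasi-likelihood test, adjusted p under 0.1, 12 libraries). Groups of 3 libraries are too small for a test of single outlying libraries. Among the ligand genes, the log2FC in NRF2 cells minus that in GFP cells was 0.69 for INHBA, -0.69 for INHBB, -0.53 for INHBE, 1.60 for BMP2 and -0.50 for BMP4. It was 0.40 for the antagonist gene FST, 0.37 for the co-receptor gene TGFBR3 and 0.40 for the inhibitor gene SMAD7.

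Among the named genes of the pathway list the difference was 0.87 for RGMB, 0.66 for SMURF2 and 0.57 for BMPR1B, and -0.68 for SMAD6, -0.67 for ID3, -0.58 for ID2 and -0.55 for ID1. The adjusted p ranged from 0.000416 (INHBA) to 0.068 (BMP4) over these genes.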

How the results depend on the processing

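Among settings other than left-out libraries, 424 of 432 member values and 313 of 322 named pathway values kept their direction and their side of the threshold, as did 292 of 324 and 225 of 258 with a library left out. Direction turned for members near 0 that were not called: in GFP cells BMP4 ranged from -0.142 to 0.102 (0.008, 0.005 and 0.102 were above 0; main -0.02) and SMAD7 from -0.032 to 0.055 over left-out libraries; TGFBR3 in NRF2 cells was -0.047 with library size only and -0.027 to 0.051 over left-out libraries (-0.027 and -0.008 below 0); with Cyss, BMP4 between populations ranged from -0.093 to 0.029 and BMP2 from -0.045 to 0.008. The cause was not tested.

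Pathway calls in GFP cells numbered 1 with all 12 libraries, 8 with no fold threshold and 0 to 4 with a library left out. In NRF2 cells they numbered 38 with no fold threshold. Between populations with Cyss they numbered 1 with no filter, 16 with no fold threshold and 0 to 4 with a library left out. Without Cyss, 8 members and 34 pathway genes were called with no fold threshold, and 5 to 8 and 11 to 22 with a library left out. Members called in the interaction numbered 6 to 9 with a library left out and 6 to 9 over the other settings. Pathway calls in the interaction numbered 15 at an adjusted p under 0.05 and 15 to 36 with a library left out. AMH was not called in the interaction by DESeq2, without the filter or in 9 of 12 fits with a library left out, and TGFB3 in 6 of 12.

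No label says whether replicate numbers mark pairs. The correlations of same-numbered libraries ran from -0.183 to 0.25, and 3 of 12 were over 0.1. They did not show pairing, but with 3 libraries per group they cannot exclude it. With the replicate block, members called stayed at 4, 7, 1, 5 and 8, and pathway calls were 2, 23, 2, 19 and 31. The ratio tests with the block (sign flips of 6 pairs) gave the same differences (-1.376, 1.560 and -0.328) at an exact adjusted p of 0.0625. That is above the 0.05 used for a call of a ratio, and 6 pairs allow few sign flips, which limits how small p can be. The INHBE to INHBB difference between populations was -0.38 to -0.259 with a library left out. GREM1 at 3 to 15 reads is limited by depth.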
